A study of Mus musculus with 12 samples.

Results

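The genes of MHC class I and of its peptide loading machinery were followed probe set by probe set in the cerebellum of mice that carry a spinocerebellar ataxia type 6 (Sca6) knockin allele. The members were all probe sets that the array annotation assigns to 1 of 7 genes, H2-K1, H2-D1, H2-Bl, B2m, Tap1, Tap2 and Tapbp. These 7 genes, of 18194 named by single-gene probe sets, had 23 probe sets among 45101: 4 for H2-K1, 9 for H2-D1, 1 for H2-Bl, 2 for B2m, 4 for Tap1, 1 for Tap2 and 2 for Tapbp. Another 4 probe sets name a member together with a second gene and were kept apart. Each array holds total RNA from the whole cerebellum of 1 mouse, and there were 12 arrays in 4 groups of 3. The tested mice were MPI 118Q/118Q knockins, whose allele codes for a long run of 118 glutamines, set against wild type littermates of that line. The second pair was MPI 11Q/11Q knockins, with 11 glutamines, set against their own wild type littermates. The labels give all mice a C57BL/6 background and an age of 6 weeks, and by the written genotype both knockin alleles are homozygous. The allele sits in Cacna1a, which codes for the main subunit of the voltage-gated calcium channel that Purkinje cells depend on, and the series title names early neuroinflammation before Purkinje cell loss as its subject. Nothing in the labels says which mice came from separate litters, so p-values measure the spread between these samples.

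MHC class I molecules show short peptides from inside a cell to T cells and natural killer cells. A heavy chain (H2-K1 or H2-D1, the classical genes of this strain background) pairs with the light chain beta-2 microglobulin (B2m). Peptides reach the endoplasmic reticulum through a transporter made of Tap1 and Tap2, and tapasin (Tapbp) holds the empty heavy chain next to that transporter until a peptide is bound. H2-Bl is an H2 gene named for the blastocyst, and RefSeq lists it as a transcribed pseudogene. Interferons raise most of these genes, and in the brain microglia and endothelial cells carry more class I than most neurons. H2 genes resemble each other closely and vary between mouse strains, so a probe set can read more than its named gene or miss an allele. The H2 alleles of these mice were not tested, and in an H2 probe set a lower level and weaker binding to an allele cannot be told apart. Of the 23 probe sets, 12 carry the suffix _x_at, with which the manufacturer marks sets that may bind transcripts of other genes. A level is given as the deposited log2 value. All members except B2m, which is on chromosome 2, lie on chromosome 17, in the order Tapbp, H2-K1, Tap1, Tap2, H2-D1, H2-Bl in the RefSeq annotation of GRCm38.p6.

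The promoters of the heavy and light chains are shown because these genes are known to share regulatory elements and because their levels are compared below. Each sequence is the 250 bases before an annotated transcript start of RefSeq (GRCm38.p6), on the strand of the gene: H2-K1 at chr17:34000348-34000597 on the minus strand, H2-D1 at chr17:35262844-35263093 on the plus strand and B2m at chr2:122147437-122147686 on the plus strand. RefSeq gives H2-K1 more than 1 start; the first of 2 windows is shown, and it lies inside the annotated gene, which reaches further upstream. Capitals mark matches, on either strand, to 4 motifs known from class I promoters: a kB motif (GGG, any 2 bases, TT, any 1 base, CC), an interferon response half-site (TTTCNNTT), a CRE core (TGACG) and a CCAAT box (CCAAT).
H2-K1: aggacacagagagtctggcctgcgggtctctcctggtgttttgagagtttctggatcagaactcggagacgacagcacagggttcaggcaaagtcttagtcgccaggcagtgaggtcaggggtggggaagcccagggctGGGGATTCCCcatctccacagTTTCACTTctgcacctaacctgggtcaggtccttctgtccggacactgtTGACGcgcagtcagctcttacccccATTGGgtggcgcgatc
H2-D1: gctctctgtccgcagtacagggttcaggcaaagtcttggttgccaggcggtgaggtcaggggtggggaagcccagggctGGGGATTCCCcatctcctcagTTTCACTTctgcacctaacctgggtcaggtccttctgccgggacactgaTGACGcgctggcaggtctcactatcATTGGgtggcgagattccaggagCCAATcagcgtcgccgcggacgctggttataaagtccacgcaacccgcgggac
B2m: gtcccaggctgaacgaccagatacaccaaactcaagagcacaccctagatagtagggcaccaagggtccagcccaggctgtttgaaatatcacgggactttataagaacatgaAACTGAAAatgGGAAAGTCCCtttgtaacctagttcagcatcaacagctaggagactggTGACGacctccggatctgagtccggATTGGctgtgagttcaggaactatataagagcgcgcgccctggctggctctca
The H2-D1 and H2-K1 windows were identical at 87.4% of 190 aligned bases. Among 32851 promoter windows of this length, 4.11% hold the kB motif, 21.3% the interferon half-site, 17.8% the CRE core and 33.8% the CCAAT box. All 4 stand together in 24 windows, or 0.0731%, and these belong to 22 genes, among them H2-K1, H2-D1 and B2m. The promoter window of Tap1 holds the CRE core and a CCAAT box, and that of Tapbp only CCAAT boxes. Such a match is a description of letters, not of a factor bound there. Promoters of 5 of the 7 members were matched.

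The arrays resembled each other, with correlations of 0.980 to 0.995 between pairs over all probe sets. Markers of the labelled tissue were bright: Neurod1 of granule cells read 10.4 to 10.6 and Calb1 of Purkinje cells 9.54 to 10.9 across the 12 arrays. Cacna1a itself read 5.67, 5.65 and 5.50 in 118Q knockin cerebella against 6.09, 5.54 and 6.19 in 118Q wild type ones, and 6.28, 6.42 and 6.17 in 11Q knockin cerebella against 6.36, 6.25 and 6.48 in 11Q wild type ones; its probe set does not tell the knockin allele from the normal one. The signal of 3 probe sets for 18S ribosomal RNA lay at 8.56 to 9.23 in the 118Q knockin arrays and 9.66 to 10.3 in the 118Q wild type arrays, and at 10.1 to 10.4 in the 11Q knockin arrays and 10.2 to 10.5 in the 11Q wild type arrays. It therefore moves with the 118Q knockin group. Individual arrays also stood apart for the members. 118Q knockin replicate 3 was the lowest of the 12 arrays for all 6 bright H2-K1 and H2-D1 probe sets (those with a mean above 3.0), against 5.18% of all probe sets for which it was lowest. 11Q knockin replicate 1 was the highest array for 9 of 16 members, against 5.11% of all probe sets. For several values that turn on these arrays, the value without them is given as well.

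A filter on the mean over all arrays, set at the lowest 40% (log2 below 1.58), left 27060 probe sets, of which 16 are members: 3 for H2-K1, 6 for H2-D1, 1 each for H2-Bl, Tap1 and Tap2, and 2 each for B2m and Tapbp. The 7 dim members, 3 of them for Tap1, 3 for H2-D1 and 1 for H2-K1, had means of 0.32 to 1.11 and never read above 1.44 on any array, so no level can be compared for them. Just inside the filter stood H2-D1 1452544_x_at, with a mean of 1.59 and 12 values between 1.38 and 1.78, and just outside it Tap1 1448177_at, with a mean of 1.11. Called, below, means an adjusted p below 0.05 in limma with Benjamini-Hochberg adjustment over all 27060 probe sets, and every adjusted p printed for a probe set is of this kind. The genes were selected on their levels in the comparisons of the 118Q line, in earlier results of these data, so their p-values describe them and give no independent support.

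**Figure D1:**
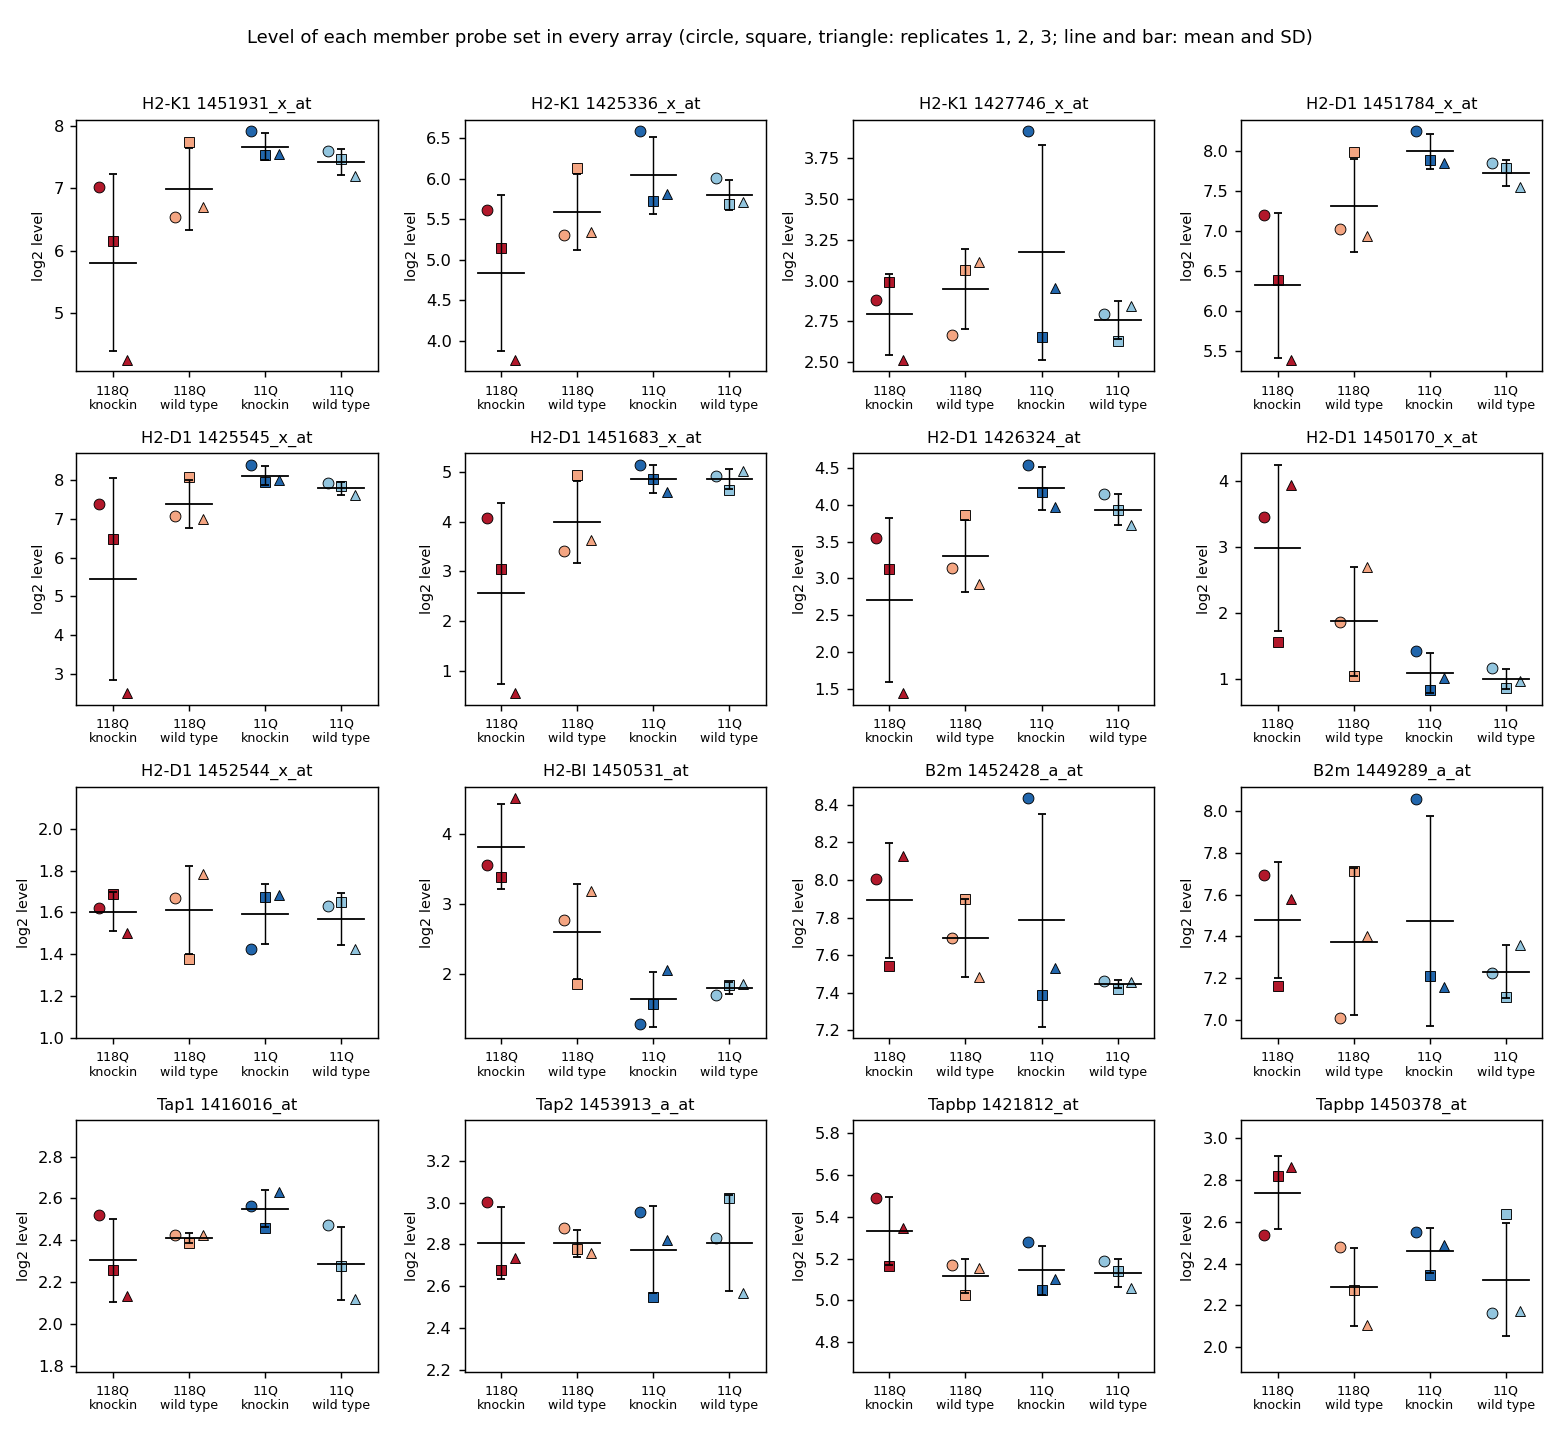
The log2 level of the 16 measured member probe sets is plotted for each of the 12 arrays, by group, with the group mean (line) and SD (bar, n = 3). The 6 bright H2-K1 and H2-D1 sets spread widely in the 118Q line, H2-D1 1425545_x_at from 2.50 to 8.09, while H2-D1 1452544_x_at stays within 1.38 to 1.78 and Tap1 within 2.12 to 2.63.

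The bright H2-K1 and H2-D1 probe sets spread widely within the 118Q line, and their levels did not separate its knockins from their littermates. H2-K1 1451931_x_at read 7.03, 6.15 and 4.25 in the 118Q knockin cerebella against 6.53, 7.75 and 6.70 in the 118Q wild type ones. The same probe set read 7.91, 7.53 and 7.56 in 11Q knockin cerebella against 7.60, 7.47 and 7.20 in 11Q wild type ones. Both groups of the 118Q line thus reached below the 11Q line, and 118Q wild type replicate 2 alone stood level with it. H2-D1 1451784_x_at, the brightest set of that gene, read 7.19, 6.38 and 5.39 in 118Q knockin cerebella against 7.02, 7.98 and 6.93 in 118Q wild type ones. In the 11Q line it read 8.24, 7.89 and 7.84 in knockin cerebella against 7.84, 7.78 and 7.54 in wild type ones. The knockin and wild type ranges overlapped in the 118Q line and just failed to overlap in the 11Q line.

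The largest swing belonged to H2-D1 1425545_x_at, with 7.38, 6.47 and 2.50 in 118Q knockin cerebella against 7.07, 8.09 and 6.99 in 118Q wild type ones. It held between 7.95 and 8.39 in 11Q knockin cerebella and between 7.60 and 7.92 in 11Q wild type ones. A single array, 118Q knockin replicate 3, therefore lay at least 3.97 log2 units under every other array of its line. H2-D1 1451683_x_at was likewise lowest in that array, with 4.07, 3.05 and 0.55 in 118Q knockin cerebella against 3.41, 4.93 and 3.63 in 118Q wild type ones. H2-D1 1426324_at, whose name carries no _x_ suffix, read 3.55, 3.13 and 1.44 in 118Q knockin cerebella against 3.15, 3.86 and 2.92 in 118Q wild type ones. In H2-K1 1425336_x_at the values were 5.62, 5.14 and 3.77 in 118Q knockin cerebella against 5.31, 6.13 and 5.34 in 118Q wild type ones. These 6 bright probe sets had features in common, though the order of the arrays was not identical. In each of them the 5 arrays of the 118Q line other than wild type replicate 2 lay below all 6 arrays of the 11Q line, and wild type replicate 2 lay inside the 11Q range. In H2-D1 1451683_x_at, for instance, those 5 arrays reached at most 4.07 and the 11Q line at least 4.59.

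The spread within groups was wide over all arrays and depended in part on single arrays. The pooled SD within groups of H2-D1 1425545_x_at was 1.34, the 19th largest of 27060 probe sets, and that of H2-D1 1451683_x_at was 1.01, the 41st. The median over all probe sets was 0.192. H2-K1 1451931_x_at ranked 92nd with 0.797. Without 118Q knockin replicate 3 the pooled SDs were 0.437 for H2-D1 1425545_x_at (rank 1025), 0.546 for H2-D1 1451683_x_at (rank 405) and 0.451 for H2-K1 1451931_x_at (rank 880). By group, the SD of H2-K1 1451931_x_at was 1.42 in 118Q knockin cerebella and 0.66 in 118Q wild type ones, against 0.21 in 11Q knockin and 0.20 in 11Q wild type ones. The 118Q knockin SD was 0.62 without replicate 3, and the 118Q wild type SD was 0.12 without replicate 2.

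Not every H2-K1 or H2-D1 probe set followed this order. H2-K1 1427746_x_at read 2.88, 2.99 and 2.51 in 118Q knockin cerebella against 2.66, 3.06 and 3.11 in 118Q wild type ones, and its highest value of 3.91 was in 11Q knockin replicate 1. H2-D1 1450170_x_at ran the other way, with 3.45, 1.55 and 3.94 in 118Q knockin cerebella against 1.86, 1.04 and 2.70 in 118Q wild type ones. It stayed at 0.82 to 1.42 in 11Q knockin cerebella and at 0.86 to 1.16 in 11Q wild type ones, under the filter value, so this probe set passed only through the 118Q line and had to differ between the lines. H2-D1 1452544_x_at stayed between 1.38 and 1.78 on all arrays. Of the sets shared between genes, that of H2-K1 with H2-D1 (1424948_x_at) averaged 2.64 ± 0.35 in 118Q knockin cerebella and 2.64 ± 0.33 in 118Q wild type ones (SD, n = 3 each).

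H2-Bl ran against the bright heavy chain sets in several arrays, but not in all. Its probe set 1450531_at read 3.55, 3.38 and 4.50 in 118Q knockin cerebella against 2.77, 1.86 and 3.18 in 118Q wild type ones. In the 11Q line it read 1.28, 1.58 and 2.06 in knockin cerebella against 1.70, 1.84 and 1.86 in wild type ones. All 3 118Q knockin arrays stood above all other arrays, and 118Q wild type replicate 2 again lay inside the 11Q range while the other wild type arrays of its line lay above that range. Replicate 3 of the 118Q knockins, lowest for the heavy chains, was highest for H2-Bl. Replicate 1 of the 118Q knockins, the highest of its group for the 6 bright heavy chain sets, was the second highest of it for H2-Bl.

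**Figure D2:**
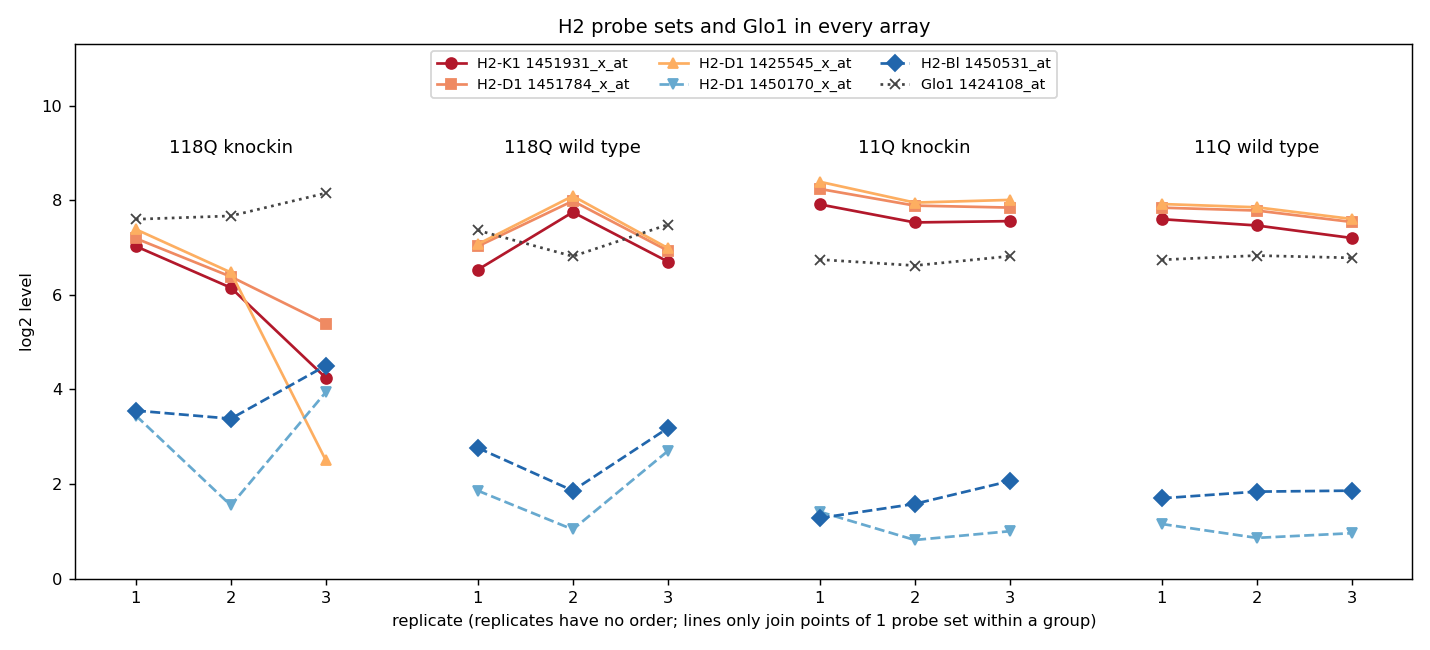
Log2 levels of 3 bright H2-K1 and H2-D1 probe sets (warm colours), of H2-D1 1450170_x_at and H2-Bl (blue, dashed) and of Glo1 (dotted) are plotted for each array; lines only join the points of a group. In 118Q knockin replicate 3 the heavy chain sets read 2.50 to 5.39 and H2-Bl stands at 4.50, whereas in the 11Q line every array keeps the 3 heavy chain sets at 7.20 or more and H2-Bl at 2.06 or less.

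B2m, the light chain, did not share the low heavy chain values of 118Q knockin replicate 3. Its probe set 1452428_a_at read 8.0, 7.54 and 8.13 in 118Q knockin cerebella against 7.69, 7.90 and 7.48 in 118Q wild type ones, and 8.43, 7.39 and 7.53 in 11Q knockin cerebella against 7.46, 7.42 and 7.46 in 11Q wild type ones. The second set, 1449289_a_at, read 7.69, 7.16 and 7.58 in 118Q knockin cerebella against 7.01, 7.71 and 7.40 in 118Q wild type ones, and 8.05, 7.21 and 7.16 in 11Q knockin cerebella against 7.23, 7.11 and 7.36 in 11Q wild type ones. In both sets the highest of the 12 values was that of 11Q knockin replicate 1, and the knockin and wild type ranges overlapped in both lines. 118Q knockin replicate 3, so low for the heavy chains, was the second highest array for B2m 1452428_a_at. Without that array the B2m sets correlated with the bright heavy chain sets at 0.175 to 0.688.

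The loading genes varied little between arrays, and the Tap1 and Tap2 sets were dim. Tap1 1416016_at read 2.52, 2.26 and 2.14 in 118Q knockin cerebella against 2.43, 2.39 and 2.43 in 118Q wild type ones, and 2.56, 2.46 and 2.63 in 11Q knockin cerebella against 2.47, 2.28 and 2.12 in 11Q wild type ones. For Tap2 1453913_a_at the values were 3.00, 2.68 and 2.73 in 118Q knockin cerebella against 2.88, 2.78 and 2.76 in 118Q wild type ones, and between 2.55 and 3.02 in the 11Q line. The groups overlapped for both subunits of the transporter. Tapbp 1421812_at read 5.49, 5.16 and 5.35 in 118Q knockin cerebella against 5.17, 5.02 and 5.16 in 118Q wild type ones, with 5.05 to 5.28 in 11Q knockin cerebella and 5.06 to 5.19 in 11Q wild type ones. Its dimmer set 1450378_at read 2.54, 2.82 and 2.86 in 118Q knockin cerebella against 2.48, 2.27 and 2.11 in 118Q wild type ones. There the 118Q knockin arrays stood above all 3 arrays of their littermates, but not above the 11Q line, where wild type replicate 2 read 2.64.

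In the comparison of 118Q knockins with their wild type littermates no member was called. This comparison called 2.25% of all 27060 probe sets, so that 0 of 16 is a share no higher than the background. At an unadjusted p below 0.05 there were 6 of 16 members, against 18% of all probe sets. The groups did not overlap for 2 members, H2-Bl and Tapbp 1450378_at, both higher in the knockins, against 12.4% of all probe sets with this order, 9.21% with the opposite one and 21.6% in either direction. Calls over all probe sets were 0.469% higher and 1.78% lower. The difference was -1.19 ± 0.53 log2 units (SE) for H2-K1 1451931_x_at (adjusted p = 0.259) and -0.99 ± 0.37 for H2-D1 1451784_x_at (adjusted p = 0.187). H2-D1 1425545_x_at differed by -1.93 ± 0.88 (adjusted p = 0.271). These values lean on 1 mouse: without 118Q knockin replicate 3 they were -0.41 for H2-K1 1451931_x_at, -0.53 for H2-D1 1451784_x_at and -0.45 for H2-D1 1425545_x_at. For H2-D1 1426324_at the direction turned, with -0.60 ± 0.42 over all arrays and 0.03 without that mouse.

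H2-Bl came nearest to the threshold, with 1.21 ± 0.33 log2 units, a 2.31-fold higher level in 118Q knockins (adjusted p = 0.0849, higher in 3 of 3 arrays). Without 118Q knockin replicate 3 its difference was 0.86 (adjusted p = 0.285), and without wild type replicate 2 it was 0.84. Tapbp 1450378_at differed by 0.45 ± 0.15 (adjusted p = 0.152) and Tapbp 1421812_at by 0.22 ± 0.12 (adjusted p = 0.357). B2m differed by 0.20 ± 0.24 and 0.10 ± 0.24 in its 2 sets, Tap1 by -0.11 ± 0.13 and Tap2 by -0.00 ± 0.15, each within about 1 standard error of 0. Over the 16 members 6 differences were above 0 and 10 below, with a median of -0.06 log2 units against 0.03 over all probe sets. In bulk tissue, fewer cells of a type and less RNA per cell cannot be told apart.

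In the comparison of 11Q knockins with their wild type littermates no member was called either, nor was any of the 27060 probe sets (0%). At an unadjusted p below 0.05 there were 954 probe sets (3.53%) and no member among them. The arrays did not overlap for H2-D1 1451784_x_at and H2-D1 1425545_x_at, both higher in 11Q knockins by 0.27 ± 0.37 and 0.32 ± 0.88 log2 units, against 3.52% of all probe sets with this order, 6.13% with the opposite one and 9.66% in either direction. Their standard errors are pooled with the 118Q line and exceed the differences. Over the members 14 of 16 differences were above 0, with a median of 0.24 against -0.03 over all probe sets. That lean rested in part on 1 array: without 11Q knockin replicate 1, B2m 1452428_a_at differed by 0.01 in place of 0.34, H2-K1 1427746_x_at by 0.05 in place of 0.42 and H2-D1 1451784_x_at by 0.14. Not every member fell: H2-D1 1452544_x_at then differed by 0.11 in place of 0.02 and H2-Bl by 0.02 in place of -0.16.

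The effect of the 118Q allele minus that of the 11Q allele was called for 26 probe sets (0.0961%) and no member. At an unadjusted p below 0.05 there were 2 members, against 10.8% of all probe sets. H2-Bl had a difference of effects of 1.37 ± 0.47 log2 units (adjusted p = 0.318). H2-D1 1451784_x_at had -1.26 ± 0.52 (adjusted p = 0.414) and H2-K1 1451931_x_at -1.43 ± 0.74 (adjusted p = 0.519). Without 118Q knockin replicate 3 and 11Q knockin replicate 1 these values were 0.84 for H2-Bl, -0.67 for H2-D1 1451784_x_at and -0.53 for H2-K1 1451931_x_at. H2-D1 1450170_x_at had a positive difference of effects, 1.03, and for H2-D1 1426324_at the value was -0.89 over all arrays and -0.10 without those arrays. None of these differences between the lines passed the test.

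**Figure D3:**
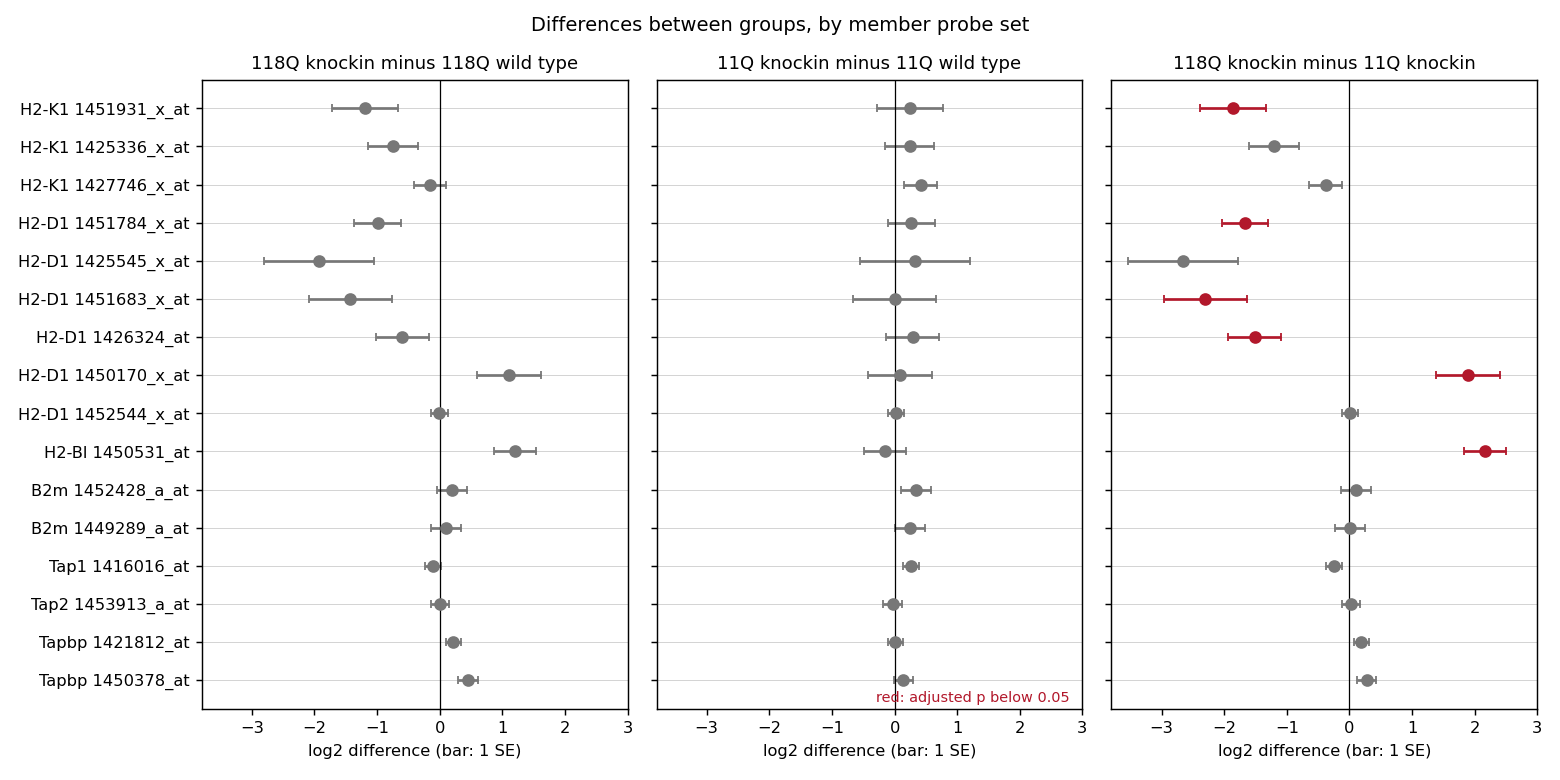
Differences in log2 level, with 1 SE, are plotted for each member probe set in 3 comparisons: 118Q knockin minus 118Q wild type, 11Q knockin minus 11Q wild type, and 118Q knockin minus 11Q knockin. Called members (red) occur only in the last of the 3, with H2-Bl at 2.17 and H2-D1 1450170_x_at, which passed the filter only through the 118Q line, at 1.90 on one side and 4 heavy chain sets between -2.30 and -1.51 on the other.

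Members were called when the knockins were set against each other, groups that differ in line as well as in glutamine number. This comparison cannot tell line and glutamine number apart. Of the 16, 6 passed the threshold, 2 higher and 4 lower, against 13.6% of all probe sets (7.14% higher and 6.47% lower). At an unadjusted p below 0.05 there were 8 members, against 30% of all probe sets. H2-D1 1450170_x_at is 1 of them, higher by 1.90 ± 0.51 log2 units, but it lies under the filter value on every 11Q array and had to differ, so its p-value carries no information. Among the other 15 members 5 were called, 1 higher and 4 lower. Higher in 118Q knockins than in 11Q knockins was H2-Bl, by 2.17 ± 0.33 log2 units or 4.50-fold (adjusted p = 0.00215). Its 11Q knockin values of 1.28, 1.58 and 2.06 lie around the filter value of 1.58, so the fold size is taken against a level near the floor. Lower were H2-D1 1451784_x_at, by -1.67 ± 0.37 log2 units (adjusted p = 0.0131), H2-D1 1426324_at, by -1.51 ± 0.42 (adjusted p = 0.0337), and H2-D1 1451683_x_at, by -2.30 ± 0.66 (adjusted p = 0.0383). H2-K1 1451931_x_at was lower by -1.86 ± 0.53 (adjusted p = 0.0357). The remaining bright sets, H2-D1 1425545_x_at with -2.66 ± 0.88 and H2-K1 1425336_x_at with -1.20 ± 0.40, missed the threshold (adjusted p = 0.0625 and 0.062). In all 8 of these sets the 3 118Q knockin arrays did not overlap the 3 11Q knockin arrays, a state found for 36.8% of all probe sets, 21.6% with 118Q above and 15.2% with 118Q below. The 118Q knockin arrays enter this comparison and the one with their littermates, so the 2 are not independent.

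These calls differed in how much they rested on single arrays and on RNA measures. H2-Bl was called under 22 of 23 alternative settings. Without both 118Q knockin replicate 3 and 11Q knockin replicate 1 it differed by 1.65 (adjusted p = 0.0262), and this was the only member still called there. H2-D1 1451784_x_at was called without 118Q knockin replicate 3 (-1.20, adjusted p = 0.0421) and without 11Q knockin replicate 1 (adjusted p = 0.046), but not without both. H2-K1 1451931_x_at was not called without 118Q knockin replicate 3 (-1.08, adjusted p = 0.0833). With the 18S signal as a covariate no member was called: H2-Bl then differed by 2.94 (adjusted p = 0.35) and H2-K1 1451931_x_at by -0.70 (adjusted p = 0.854). Since the 18S signal moves with the 118Q knockin group, the 2 cannot be told apart by this fit.

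The wild type littermates of the 118Q line, set against those of the 11Q line, gave no called probe set (0%) and 960 (3.55%) at an unadjusted p below 0.05. H2-Bl was the 1 member among these, with 0.80 ± 0.33 log2 units (adjusted p = 1.00). H2-D1 1451683_x_at differed by -0.87 ± 0.66, H2-D1 1426324_at by -0.62 ± 0.42 and H2-D1 1450170_x_at by 0.87 ± 0.51. Over all 16 members the sign was that found between the knockins for 11 and the opposite one for 5, Tap1 and both Tapbp sets among these 5. B2m 1452428_a_at was the member whose groups did not overlap, higher in wild types of the 118Q line by 0.25 ± 0.24, against 3.47% of all probe sets with this order, 3.59% with the opposite one and 7.06% in either direction.

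The members fell into blocks when their levels were correlated over the 12 arrays, which share RNA extraction, labelling and normalization, so that the values are descriptions. The 6 bright H2-K1 and H2-D1 sets correlated with each other at 0.935 to 0.985, and at 0.854 to 0.996 over the 11 arrays without 118Q knockin replicate 3. Against H2-Bl and H2-D1 1450170_x_at they stood at -0.938 to -0.693, and at -0.898 to -0.357 without that array. The B2m sets correlated with each other at 0.851. With the bright heavy chain sets they stood at -0.267 to 0.226, and at 0.175 to 0.688 without 118Q knockin replicate 3. The B2m sets therefore followed the bright heavy chain sets less closely than those sets followed each other. That gap narrowed once 1 array was left out. Sets marked _x_at may bind transcripts of other genes, so these correlations cannot show that H2-K1 and H2-D1 moved together as separate genes.

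**Figure D4:**
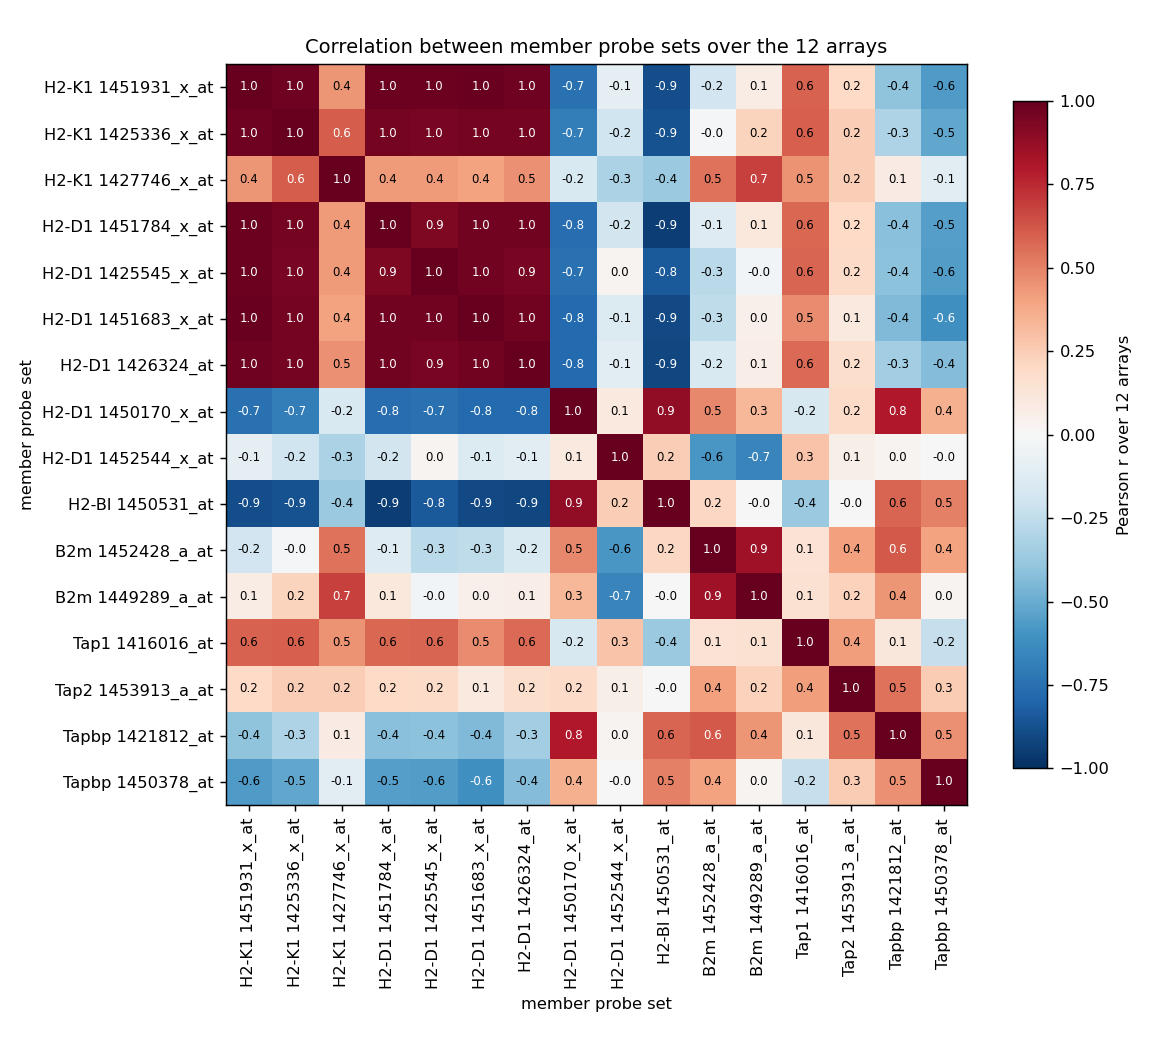
Pearson correlations between the 16 measured member probe sets over the 12 arrays are printed on a colour scale from -1.0 (blue) to 1.0 (red). The 6 bright H2-K1 and H2-D1 sets form a block at 0.935 or more, H2-Bl and H2-D1 1450170_x_at stand opposite to it, and the 2 B2m sets pair with each other at 0.851.

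The genes whose pattern over the 12 arrays was most like that of a member differed between the heavy chains and the rest. For H2-K1 they were Efna5 (r = 0.908), an ephrin ligand of axon guidance, and Gucy1b1 (r = 0.896), a subunit of the nitric oxide receptor guanylate cyclase. The same genes led for H2-D1, with 0.951 and 0.926. For H2-Bl they were Glo1 (r = 0.985), the glyoxalase that detoxifies methylglyoxal, and Kiz (r = 0.963), a centrosomal protein. For B2m they were Adap2 and Cstf2 (r = 0.900 and 0.896), for Tap1 Alas1 and Foxp4 (0.897 and 0.862), for Tap2 Mef2c and Lasp1 (0.920 and 0.870) and for Tapbp Hes6 and Idh2 (0.908 and 0.907). Glo1 1424108_at read 7.60, 7.67 and 8.15 in 118Q knockin cerebella against 7.36, 6.81 and 7.48 in 118Q wild type ones, and 6.74, 6.62 and 6.82 in 11Q knockin cerebella against 6.74, 6.83 and 6.78 in 11Q wild type ones. As with H2-Bl, 118Q wild type replicate 2 lay inside the 11Q range and the other 5 arrays of its line above it.

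Some of these neighbours in pattern are also neighbours on the chromosome. Of the 50 genes with the strongest correlation in either direction, 8 (16%) lie on chromosome 17 for each of H2-K1, H2-D1 and H2-Bl, against 594 of all 12605 measured genes (4.71%). Of the other chromosomes, chromosome 11 held the most for H2-K1 (7 of the 50) and H2-D1 (8), and chromosome 2 for H2-Bl (8). The shares of chromosomes 11 and 2 over all measured genes were not counted, so whether these numbers exceed them cannot be said. The number on chromosome 17 was 2 for Tap1 and 0 for B2m, Tap2 and Tapbp. The chromosome 17 count and the following names were chosen after the values were seen. Glo1, Tsr3, BC003965, Rps2 and Efna5 occurred in the sets of H2-K1, H2-D1 and H2-Bl alike, and the first 4 of these ran with H2-Bl and opposite to the heavy chains. Tsr3, a ribosomal RNA maturation enzyme, read 5.76, 5.82 and 5.99 in 118Q knockin cerebella against 5.59, 5.41 and 5.65 in 118Q wild type ones. Rps2, a ribosomal protein, read 9.26, 9.49 and 9.55 in 118Q knockin cerebella against 9.02, 8.98 and 9.16 in 118Q wild type ones. In GRCm38.p6 order Glo1 lies before Tapbp, Stk19 between Tap2 and H2-D1, and Znrd1 beyond H2-Bl. Tap1, Tap2 and Tapbp lie between these genes. With H2-Bl, Tap1 1416016_at correlated at -0.369, Tap2 at -0.007, and Tapbp 1421812_at and 1450378_at at 0.584 and 0.505. With H2-D1 1451784_x_at the values were 0.572, 0.199, -0.416 and -0.547 in the same order. What position on the chromosome has to do with these levels was not tested.

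The wider pathway was followed through lists of genes, each gene by its brightest probe set, and in the 118Q comparison none of the genes named in this paragraph was called. Of the peptide loading list 8 of 10 genes were measured, with 2 differences above 0 and 6 below and a median of -0.18 log2 units. The list counts Sppl2a, an intramembrane protease, beside the loading genes. Folding helpers and Sppl2a had the smallest p-values. Canx (calnexin) differed by -0.35 ± 0.11 (adjusted p = 0.11), Calr (calreticulin) by -0.32 ± 0.14, Pdia3 (ERp57) by -0.30 ± 0.12 and Sppl2a by -0.26 ± 0.11. For Canx the 118Q knockin arrays read 8.25, 8.29 and 8.26 against 8.58, 8.63 and 8.63 in 118Q wild type cerebella, without overlap. Of the immunoproteasome list 5 of 6 genes were measured, 3 above 0 and 2 below. The activator subunit Psme1 differed by 0.29 ± 0.11, the catalytic subunit Psmb10 by 0.30 ± 0.12, the assembly factor Pomp by 0.07 ± 0.10 and Psmb8 by -0.07 ± 0.17. Psme1 read 5.67, 5.54 and 5.58 in 118Q knockin cerebella against 5.19, 5.37 and 5.37 in 118Q wild type ones.

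Of the transcription factors of class I promoters 10 of 13 were measured, 7 above 0 and 3 below, with a median of 0.06. Nfyb and Nfyc, subunits of the CCAAT-binding factor, differed by 0.29 ± 0.12 and 0.14 ± 0.16, Rela of NF-kB by 0.12 ± 0.10 and Irf1, an interferon regulatory factor, by -0.24 ± 0.14. Of the 23 nonclassical class I genes 6 were measured, H2-Bl and 5 others, of which 4 were above 0 and 1 below. Hfe, which regulates iron uptake, differed by 0.25 ± 0.22, H2-M3 by 0.11 ± 0.16 and H2-T3 by -0.13 ± 0.17. Between the knockins Hfe was called beside H2-Bl, with 0.94 ± 0.22 log2 units (adjusted p = 0.0167). Class II genes, which present peptides to helper T cells, were measured for 6 of 12, 4 above 0 and 2 below. Among them H2-Eb1 differed by -0.38 ± 0.12, H2-DMa by 0.37 ± 0.18, Ctss, a protease of antigen processing, by 0.34 ± 0.23 and H2-Ea by -0.20 ± 0.15.

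Interferon-stimulated genes stood highest in 1 mouse of the 11Q line. Of 25 listed genes 20 were measured, and in the 118Q comparison none was called, 9 were above 0 and 11 below. Stat2 differed by 0.54 ± 0.22, Ifi47 by -0.39 ± 0.23, Rsad2 by -0.30 ± 0.18 and Ifitm3 by -0.23 ± 0.14. Between the knockins Ifitm3, a membrane restriction factor, was called lower in 118Q, with -0.53 ± 0.14 (adjusted p = 0.0257). It was the only 1 of the 20 called there, against 13.6% of all probe sets, and 9 of the 20 were higher and 11 lower. The median deviation of the 20 genes from their mean over all arrays was -0.06 to 0.09 in 118Q knockin arrays and -0.23 to 0.25 in 118Q wild type arrays. It was -0.22 to 0.61 in 11Q knockin arrays and -0.29 to -0.07 in 11Q wild type arrays. The 0.61 belonged to 11Q knockin replicate 1, in which 13 of the 20 genes had their highest value. Ifit3, a gene chosen after its values were seen, read 5.53 there and at most 4.48 on any other array. That array also held the highest B2m. Whether this mouse differed in a way unrelated to its genotype was not tested.

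**Figure D5:**
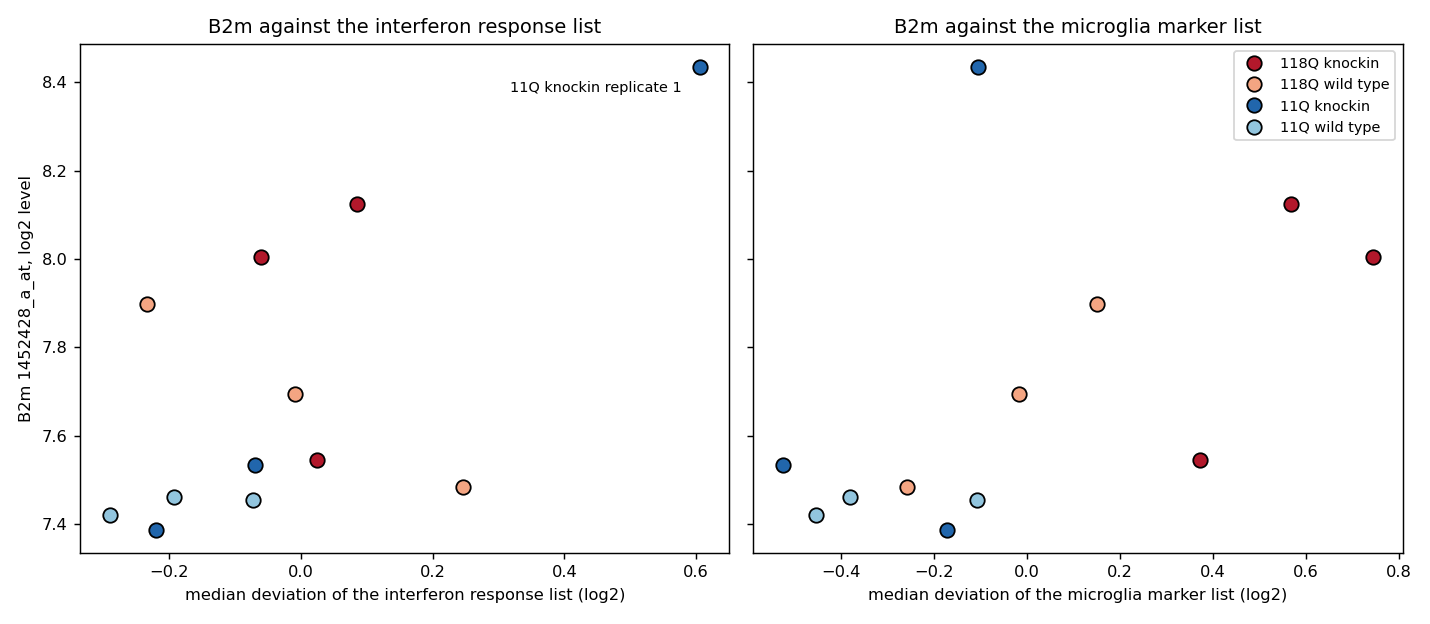
The log2 level of B2m 1452428_a_at is plotted for each array against the median deviation of the interferon-stimulated list (left) and of the microglia marker list (right), coloured by group. 11Q knockin replicate 1 stands apart on the left at 0.61 with B2m at 8.43, while on the right the 118Q knockin arrays take the highest microglia values, 0.37 to 0.74.

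Cell type markers moved beside the members, and their part in the members' levels was not tested. All 16 measured microglia markers of 20 were higher in 118Q knockins than in 118Q wild types, with 2 called: Trem2, a microglial receptor, by 0.77 ± 0.13 (adjusted p = 0.0131), and its signalling partner Tyrobp, by 1.03 ± 0.19 (adjusted p = 0.0175). The list's median deviation was 0.37 to 0.74 in 118Q knockin arrays against -0.26 to 0.15 in 118Q wild type arrays, and -0.53 to -0.10 in 11Q knockin arrays against -0.45 to -0.11 in 11Q wild type arrays. Of 14 measured endothelial markers 13 were lower in 118Q knockins and 2 were called, the vascular receptor Flt1 by -0.95 ± 0.17 and the drug transporter Abcb1a by -0.96 ± 0.22. That list's median deviation was -0.46 to -0.06 in 118Q knockin arrays against 0.01 to 0.24 in 118Q wild type arrays. Of 10 measured Purkinje cell markers 9 were lower in 118Q knockins and 3 were called, the glutamate transporter Slc1a6 by -1.13 ± 0.20 (adjusted p = 0.0147), Dner by -1.04 ± 0.23 and Car8 by -0.65 ± 0.15, with a median deviation of -0.58 to -0.07 in 118Q knockin arrays against 0.08 to 0.29 in 118Q wild type arrays. The 4 measured blood cell markers had a median deviation of 0.49 to 0.89 in 118Q knockin arrays against -0.46 to 0.35 in 118Q wild type arrays. They did not all move alike, and none was called there. S100a9 differed by 1.07 ± 0.30, S100a8 by 0.92 ± 0.34 and Ngp by 0.48 ± 0.19, but Alas2 by -0.39 ± 0.25. Between the knockins S100a9 and S100a8 were called higher in 118Q (1.51 ± 0.30 and 1.23 ± 0.34). Alas2 was called lower (-1.16 ± 0.25, adjusted p = 0.0114). Markers of T, natural killer and B cells, the cells that read class I or enter inflamed tissue, were near the floor: 15 of 17 are on the array, 5 passed the filter, and the other 10 had means of 0.54 to 1.49. Over all 15 on the array, the mean level was 1.38 to 1.60 in 118Q knockin arrays and 1.37 to 1.48 in 118Q wild type arrays, and 1.37 to 1.43 in 11Q knockin arrays and 1.32 to 1.44 in 11Q wild type arrays. Choroid plexus markers varied within groups, with a median deviation of -1.82 to 0.96 in 118Q knockin arrays against -2.05 to 1.73 in 118Q wild type arrays.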

How the data were processed

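Cerebellar RNA of 12 mice was measured on Affymetrix arrays, 1 per mouse. RNA had an integrity number above 5.0 and was labelled with biotin, per the labels' protocols. Per the submitters' processing notes the authors used RMA, and the deposited numbers are on a log2 scale; no source used here gives the RMA version. No further normalization was applied, and the number of arrays limits the precision. The array annotation gave 34958 probe sets 1 symbol, 932 several and 9211 none.

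Means of the 4 groups were fitted over the 12 arrays with limma 3.58.1 in R 4.3.3 (8 residual and 4.58 prior degrees of freedom) to the 27060 probe sets left after removal of the lowest 40% by mean. The comparisons were drawn from that model, with two-sided Benjamini-Hochberg adjusted p-values. Errors of differences are standard errors of this model. The steps were tested on simulated data.

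The members and lists were chosen with earlier results of these data known. Named were Cacna1a, every member probe set, up to 4 genes per list by smallest p in the 118Q effect, and for each member gene the 2 best correlated genes; other names are said to be chosen later. Promoters were read from RefSeq (GRCm38.p6) and aligned with Biopython 1.88. Alternatives were other filters, normalizations, weights, groups, a replicate block, an 18S covariate, another threshold and arrays left out.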

Additional observations from a re-analysis of the deposited data

How the results depend on the processing

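The number of members called stayed at 0 for the 11Q effect and for wild type against wild type under each alternative run. For the 118Q effect, 0 in the fit over all arrays, it was 10 with array weights, 2 with the replicate number as a block (470 of all probe sets, 1.74%), 1 at an adjusted p below 0.1 and 0 to 1 with an array left out (1 without 118Q knockin replicate 1). For the difference of effects it was 8 with array weights. For knockin against knockin, 6 in the fit over all arrays, it was 12 with array weights, 3 with the highest-mean probe set per gene (of 7 tested), 2 with only the groups compared (3369 of all, 12.5%), 0 with the 18S covariate, 1 without 118Q knockin replicate 3 and 11Q knockin replicate 1 together (an alternative added after seeing the data), and 2 to 7 with an array left out: 2 without 118Q knockin replicate 3, 3 without replicate 2, and 2 without any 1 of the 11Q knockins. Over all probe sets the 118Q effect called 608, against 5973 with array weights, 1314 at an adjusted p below 0.1, 113 with only the groups compared, 24 with a probe set per gene, 0 with the 18S covariate, 169 without both arrays, 178 without wild type replicate 3 of both lines and 144 to 1449 with an array left out. Knockin against knockin called 3684, against 13434 with array weights, 5942 at an adjusted p below 0.1, 1732 with a probe set per gene, 1060 without both arrays, 0 with the 18S covariate and 1590 to 4525 with an array left out. The difference of effects called 26, against 1440 with array weights, 69 at an adjusted p below 0.1, 42 with quantile normalization, 9 with the block, 1 without wild type replicate 3 of both lines, 0 with a probe set per gene, with the 18S covariate or without both arrays, and 0 to 156 with an array left out. The 11Q effect called 7 with only the groups compared and 0 to 3 with an array left out. The deviations of same-numbered arrays from their group means correlated at -0.09 to 0.02 in the 118Q line and -0.16 to 0.21 in the 11Q line. With 3 arrays per group the deviations within a group are tied to each other, so these values cannot decide whether equal numbers mark pairs. The labels name no pairs. The block called H2-Bl and H2-D1 1450170_x_at, and no block could be made across the lines. Of 1872 differences of single probe sets under alternatives, 1797 moved by less than the spread between replicates, 75 by more, and no called one changed sign. That spread is each probe set's own pooled SD, which 118Q knockin replicate 3 widens (0.797 for H2-K1 1451931_x_at, 0.451 without that array). These numbers therefore do not measure dependence on that array. In the 118Q effect H2-D1 1426324_at turned from -0.60 to 0.03 without it, and this counts as a move smaller than its SD of 0.635. The cause of these shifts was not tested. Probe sequences were not used here, so what each H2 probe set binds was not examined, and 3 arrays per group limit every comparison.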
